A study of Mus musculus with 11 samples.

Results

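A set of 10 genes that mark hepatocytes around the central vein of the liver lobule, or that are induced there by Wnt signalling, was followed in the livers of mice given a decoy against 2 microRNAs. They were *Glul*, *Oat*, *Slc1a2*, *Lgr5*, *Axin2*, *Rgn*, *Lect2*, *Rnf43*, *Tbx3* and *Gulo*. The genes were chosen by name, with earlier results of these data known. All 10 of 10 were found among the 13669 genes of the count table, of which 13334 were tested. The libraries came from 11 livers of young male wild-type C57BL/6J mice, each animal injected through the tail vein with a recombinant adeno-associated virus of serotype 8 carrying the liver-specific LP1 promoter, which joins an apolipoprotein control region to the alpha-1-antitrypsin promoter. In 6 livers the vector expressed a tough decoy (TuD), an RNA hairpin that binds and blocks both miR-541 and miR-379 (AAV-TuD). In the other 5 livers it expressed a negative control sequence (AAV-NC), so both groups carried the virus, and no liver without it was analysed here. The animals had fasted for several hours before they were killed, and livers were collected weeks to months after the injection in the study as a whole, with no time stated for these 11. Livers are named below by group and by the number in their label, such as NC 8 or TuD 3. Levels are given as CPM, the reads of a gene relative to the size of its library, which was corrected by the TMM method so that a few very abundant transcripts do not set the scale. With 3′ libraries a CPM level does not depend on the length of the transcript.

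Blood crosses the lobule from the portal tract to the central vein, and hepatocytes along this path express different enzymes, a pattern called zonation. Endothelial cells at the central vein secrete Wnt ligands and R-spondin 3, and beta-catenin with TCF factors then switches on genes in the nearby pericentral hepatocytes. Glutamine synthetase, encoded by *Glul*, is found in the last few cell layers before the vein, where it captures ammonia that the periportal urea cycle has let pass. Whole-liver RNA keeps no record of position, and a lower level could mean fewer pericentral cells or less RNA per cell, which cannot be told apart here.

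The decoy was built against both of the following microRNAs, which lie on chromosome 12 at chr12:109709065-109709085 and chr12:109742422-109742446 (plus strand, GRCm38). Their mature sequences, from RefSeq, are shown because the seed, bases 2 to 8 and set in capitals, gives the letters that were sought in the 3′ UTRs of the 10 genes.
miR-379-5p: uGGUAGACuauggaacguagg
miR-541-5p: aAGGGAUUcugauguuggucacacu
The reverse complement of the miR-379 seed, GTCTACC, was in none of the 10 longest 3′ UTRs, against 5.18% of 10965 genes. The reverse complement of the miR-541 seed, AATCCCT, was in 8.96% of those genes and in 1 of the 10, *Slc1a2*, whose 3′ UTR is 9253 bases long. A match is a description of the letters only. The study reported that the decoy also lowered host transcripts and further microRNAs of the cluster to which both belong. The seeds of those further microRNAs were not sought here.
*Slc1a2* 3′ UTR, from base 4738 at the first capital: atatcctttggttaaAATCCCTatt

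Of the 10 genes, *Oat* alone differed between the groups at an adjusted p under 0.05 (edgeR's quasi-likelihood test, Benjamini-Hochberg adjustment over all genes tested), and it was higher with the decoy. This is 1 of 10 genes called, against 11.6% of all genes tested. For calls in 1 direction the background was 7.24% higher and 4.33% lower, and the 10 genes gave 1 higher and 0 lower. At an unadjusted p under 0.05, *Oat* and *Slc1a2* passed and no gene was lower, and DESeq2 and limma-voom each gave 1 higher and 0 lower. Of all genes called, 62.6% were higher with the decoy, a share that rose to 95.1% when libraries were scaled by their totals alone. In none of the 10 were the AAV-NC and AAV-TuD livers fully separated, against 7.39% of all genes tested. The median log2 fold change of the 10 was -0.00, as was that of all genes. In 6 of the 10 the 95% interval of the fold change lay within 1.5-fold in either direction.

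**Figure D1:**
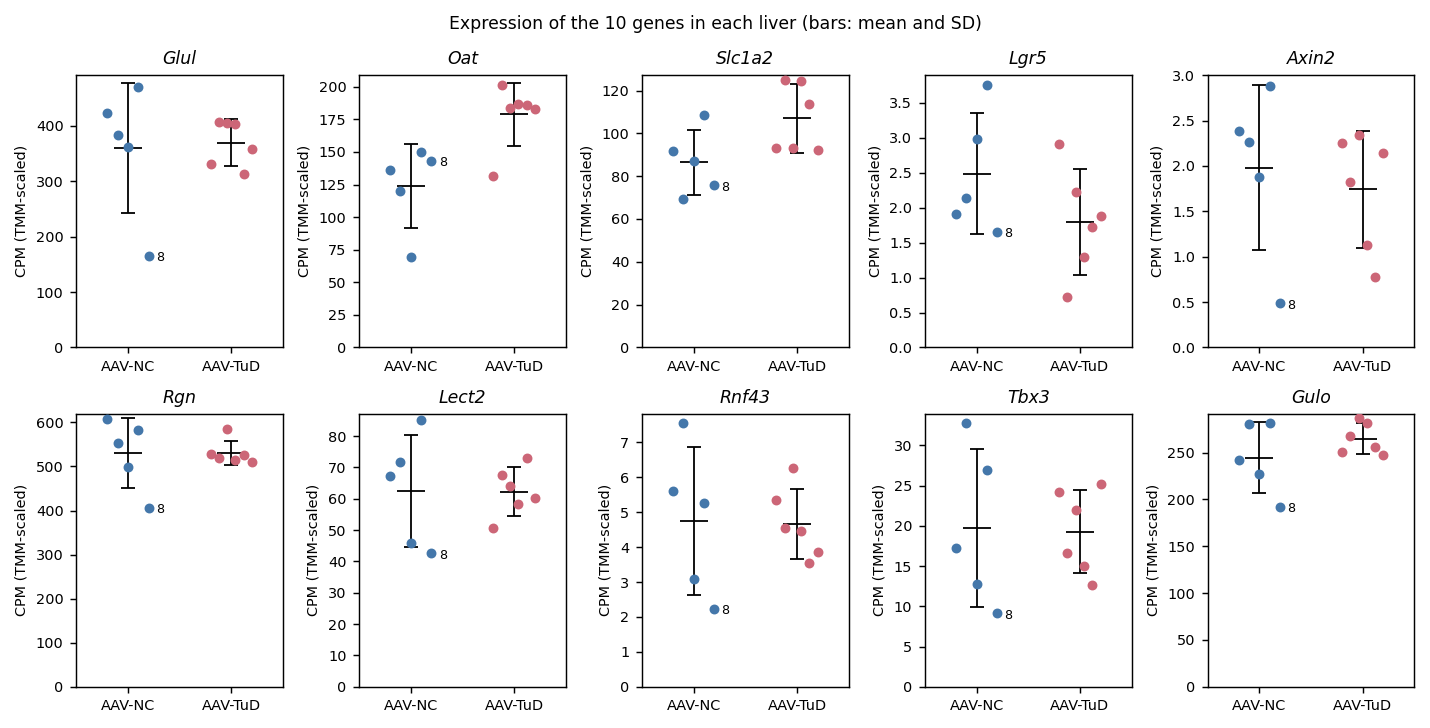
Level of each of the 10 genes in every liver, in CPM scaled by the TMM method, for AAV-NC (blue, 5 livers) and AAV-TuD (red, 6 livers). Bars give the mean and SD of each group and the label 8 marks NC 8. NC 8 is the lowest of all 11 points for 7 genes, and for *Oat* 5 of the 6 red points lie above every blue one.

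Of the 3 genes of glutamate and glutamine handling *Oat* rose, and *Glul* and *Slc1a2* did not pass the test. *Glul* is located at chr1:153899944-153909723 (plus strand, GRCm38, as are all positions below). It measured 422.8, 382.4, 360.8, 469.2 and 164.9 CPM in NC 1, 2, 6, 7 and 8, and 331.6, 407.4, 405.1, 403.5, 312.5 and 357.7 CPM in TuD 3, 4, 5, 9, 10 and 11. NC 8 therefore stood alone at 40.3% of the mean of the other AAV-NC livers, and the remaining livers of both groups overlapped. The means were 360.0 ± 117 CPM (SD, n = 5) and 369.6 ± 41.7 CPM (SD, n = 6), a log2 fold change of 0.04 (SE 0.19, 95% interval -0.36 to 0.44, edgeR adjusted p = 0.927). Leaving out NC 8 turned the sign to -0.14 (SE 0.10, adjusted p = 0.41). *Glul* has processed pseudogenes with 96.8% and 93.0% identity over 1126 and 1122 bases, *Glns-ps1* and *AC134576.3*, and neither is in the count table. Whether the 3′ reads of *Glul* fall in the aligned bases was not tested. How the authors' counting treated such reads is not known, so any effect on its level is open.

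*Oat* encodes ornithine aminotransferase, the mitochondrial enzyme that turns ornithine into a precursor of glutamate and proline, and lies at chr7:132557478-132576398 (minus strand). Its level was 136.2, 120.0, 69.4, 149.8 and 143.2 CPM in NC 1, 2, 6, 7 and 8. With the decoy it was 131.7 CPM in TuD 3 and 201.2, 183.9, 186.4, 186.3 and 182.8 CPM in TuD 4, 5, 9, 10 and 11. All AAV-TuD livers but TuD 3 were above every AAV-NC liver, and NC 6 was the lowest. The mean rose from 124 ± 32.3 to 179 ± 24.0 CPM, a fold of 1.44 (95% interval 1.14 to 1.83, log2 0.53, SE 0.16, adjusted p = 0.0417), and a two-sided exact permutation test over the 462 splits of the livers gave p = 0.0108. The call was close to the threshold, with *Oat* at rank 1395 of all genes by p. It was lost when NC 1, NC 2 or any of TuD 4, 5, 9, 10 and 11 was left out (log2 0.50 to 0.57, adjusted p 0.0589 to 0.0901), while without NC 8 it stood at 0.59 (adjusted p = 0.0414). Its lowest value, 0.38 (adjusted p = 0.0404), came without NC 6, the low control liver. *Fgfr2*, which overlaps *Oat* on the same strand, was at 10.1 CPM in AAV-NC and 8.94 CPM in AAV-TuD (adjusted p = 0.583).

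*Slc1a2* encodes a plasma membrane glutamate transporter that is best known from astrocytes and in the liver is restricted to pericentral cells (chr2:102658659-102790784, plus strand). It ranged from 69.4 to 108.7 CPM in AAV-NC (median 87.2) and from 92.4 to 124.7 CPM in AAV-TuD (median 103.5). Every AAV-TuD liver was above the AAV-NC median and 3 of 6 were above the AAV-NC maximum. The log2 fold change of 0.31 (SE 0.12, 95% interval 0.05 to 0.56) did not pass after adjustment (p = 0.112), and the exact permutation p was 0.0476. It passed when NC 7 was left out (0.40, adjusted p = 0.0392) and when libraries were scaled by their totals alone (0.59, adjusted p = 0.0244). *Slc1a2* was the only one of the 10 genes with a match to a decoy target's seed. Its 3′ UTR was also the longest, at 9253 bases, followed by *Lgr5* at 1706 bases. Any part of the match in its level was not tested. Of 16 other measured genes of glutamate and glutamine handling, among them glutamate dehydrogenase, the transaminases and the glutaminases, 0 rose and 0 fell in edgeR (2 and 2 at an unadjusted p under 0.05, 1 and 0 with DESeq2, 0 and 0 with limma-voom), with a median log2 fold change of -0.03.

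**Figure D2:**
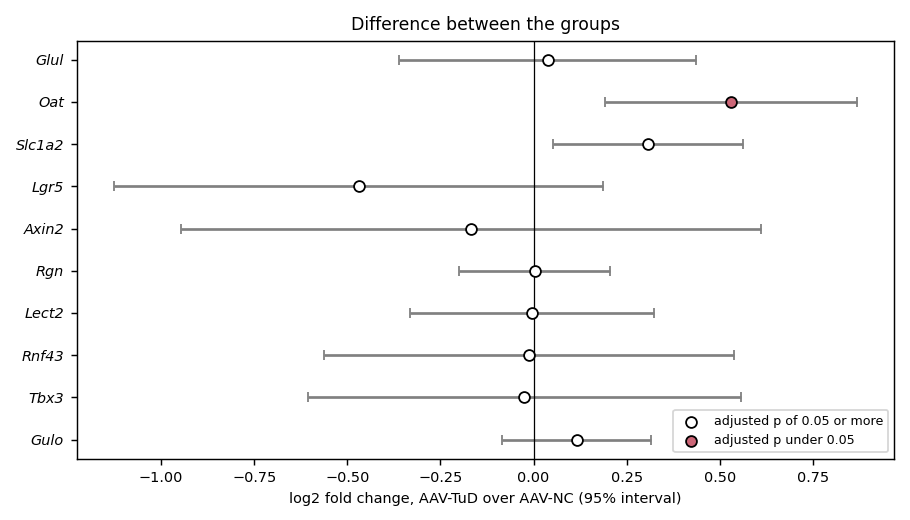
Log2 fold change of each of the 10 genes, AAV-TuD over AAV-NC, with its 95% interval from edgeR (5 and 6 livers). The filled point, *Oat* at 0.53, is the gene with an adjusted p under 0.05, and the widest intervals belong to *Lgr5* and *Axin2*, the 2 genes with the fewest reads.

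*Rgn* and *Gulo* act in the same route, the synthesis of ascorbate (vitamin C) that mice carry out in the liver: regucalcin, the product of *Rgn*, works as a gluconolactonase, and *Gulo* encodes the oxidase of the last step. *Rgn* (chrX:20549787-20562089, plus strand) was at 529.7 ± 79.6 CPM in AAV-NC and 530.6 ± 27.4 CPM in AAV-TuD. Its log2 fold change was 0.00 (95% interval -0.20 to 0.21, adjusted p = 0.991), which is a fold between 0.871 and 1.15. *Gulo* (chr14:65986786-66009207, minus strand) was at 245 ± 37.7 and 265.0 ± 16.5 CPM, a log2 fold change of 0.12 (95% interval -0.08 to 0.31, adjusted p = 0.474). In both genes NC 8 was the lowest liver, at 406.7 CPM for *Rgn* and 192.3 CPM for *Gulo*, or 72.6% and 74.6% of the mean of the other AAV-NC livers. Of 7 further genes of ascorbate synthesis and transport, *Ugp2* fell, which encodes the enzyme that makes UDP-glucose, and 0 rose, also at an unadjusted p under 0.05 and with DESeq2 and limma-voom. *Ugp2* went from 150.3 ± 34.2 to 109 ± 11.5 CPM (log2 -0.46, edgeR adjusted p = 0.0271), and this call was lost without NC 1, NC 6, TuD 5, TuD 10 or TuD 11 (-0.46 to -0.34, adjusted p 0.0544 to 0.0717). It was also lost when libraries were scaled by their totals alone (-0.21, adjusted p = 0.478).

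*Lect2* encodes a protein that hepatocytes secrete into the blood and is a target of beta-catenin in the liver (chr13:56542464-56548502, minus strand). It measured 67.3, 71.9, 46.0, 85.0 and 42.6 CPM in NC 1, 2, 6, 7 and 8, and 50.5, 67.5, 63.9, 58.2, 73.0 and 60.3 CPM in TuD 3, 4, 5, 9, 10 and 11. NC 6 and NC 8 were the lowest livers and NC 7 the highest, so that the AAV-NC livers spread on either side of the decoy group. The log2 fold change was -0.00 (95% interval -0.33 to 0.32, adjusted p = 0.989), a fold between 0.794 and 1.25.

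*Axin2*, *Rnf43*, *Lgr5* and *Tbx3* belong to the response to Wnt itself. *Axin2* encodes a scaffold of the complex that destroys beta-catenin, and *Rnf43* a ubiquitin ligase that removes Frizzled receptors from the cell surface, so both act as feedback inhibitors. *Axin2* (chr11:108920349-108950783, plus strand) had only 5 to 25 reads a liver. Its level was 2.39, 2.27, 1.88, 2.88 and 0.487 CPM in NC 1, 2, 6, 7 and 8, and 2.25, 1.82, 2.34, 1.13, 0.776 and 2.14 CPM in TuD 3, 4, 5, 9, 10 and 11. NC 8 was at 20.7% of the mean of the other AAV-NC livers, the lowest share that it reached among the 10 genes, and TuD 9 and TuD 10 were the next lowest. The log2 fold change was -0.17 (SE 0.37, adjusted p = 0.824) with an interval from -0.95 to 0.61, which takes in a change of 1.5-fold in either direction. Without NC 8 the value was -0.44 (SE 0.30, adjusted p = 0.393), and the coefficient of variation in AAV-NC went from 45.8% to 17.5%.

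*Rnf43* (chr11:87662722-87735539, plus strand) had 23 to 60 reads a liver, at 5.61, 7.55, 3.10, 5.26 and 2.24 CPM in NC 1, 2, 6, 7 and 8. With the decoy it stood at 5.35, 4.56, 6.27, 4.45, 3.54 and 3.85 CPM in TuD 3, 4, 5, 9, 10 and 11. The highest and the lowest liver were thus both AAV-NC. The log2 fold change was -0.01 (SE 0.26, 95% interval -0.56 to 0.54, adjusted p = 0.983). *1110028F11Rik* is annotated inside *Rnf43* on the same strand, at 1.92 and 2.37 CPM in the 2 groups (adjusted p = 0.551).

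*Lgr5*, which encodes a receptor for R-spondins and is a well-known Wnt target of stem cells and pericentral hepatocytes, was the gene with the lowest fold change (chr10:115450311-115587780, minus strand). With 8 to 31 reads a liver it stood at 1.91, 2.14, 2.99, 3.76 and 1.66 CPM in NC 1, 2, 6, 7 and 8. It was 2.91, 0.729, 2.23, 1.29, 1.73 and 1.88 CPM in TuD 3, 4, 5, 9, 10 and 11. TuD 4 and TuD 9 were the lowest livers, and the other AAV-TuD livers lay within the range of AAV-NC. The log2 fold change of -0.47 (SE 0.31, 95% interval -1.13 to 0.19) had an adjusted p of 0.365.

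*Tbx3* encodes a T-box transcription factor that beta-catenin induces in liver (chr5:119670669-119684724, plus strand). It measured 17.2, 32.7, 12.7, 26.9 and 9.15 CPM in NC 1, 2, 6, 7 and 8, and 24.2, 16.7, 22.0, 15.1, 12.6 and 25.1 CPM in TuD 3, 4, 5, 9, 10 and 11. The AAV-NC livers again held both the highest and the lowest value. The log2 fold change was -0.02 (SE 0.27, 95% interval -0.61 to 0.56, adjusted p = 0.97), and the antisense *Tbx3os1*, whose reads could be told from those of *Tbx3* only if the counting used strand, had an adjusted p of 0.417.

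Most of the 10 genes shared a low point in a single control liver. NC 8 was the lowest of the 11 livers for *Glul*, *Axin2*, *Rgn*, *Lect2*, *Rnf43*, *Tbx3* and *Gulo*, and the lowest AAV-NC liver also for *Lgr5*, whereas over all genes tested it was the lowest liver in 10.6%. Its median distance from the median liver was -0.50 on the log2 scale over the 10 genes and 0.00 over all genes. *Oat* did not take part, with NC 8 at 120.0% of the mean of the other AAV-NC livers. NC 8 was not short of reads, with 10007923 of a range from 8148531 to 12043959 per library. When libraries were scaled by their totals alone, an alternative chosen after the values were seen, NC 8 was still the lowest for 5 of the 10 genes. Without NC 8 the median log2 fold change of the 10 was -0.13, and *Oat* remained the gene called.

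Genes of the opposite zone and other pericentral genes gave the same liver a distinct place. NC 8 was the lowest of 11 livers in 8 of 18 other pericentral genes and in 5 of 10 pericentral cytochrome P450 genes. It was also the lowest in 4 of 11 other Wnt targets. The pericentral and Wnt target lists share *Sp5* and *Nkd1*, and *Sp5* (0.389 CPM in NC 8) counts in both tallies. NC 8 was the highest in 0 of the pericentral and P450 genes. Among the Wnt targets it was the highest in 1, *Myc* (3.60 CPM), which is named here after its value was seen. Among 17 genes of periportal hepatocytes, which handle urea synthesis and the breakdown of amino acids, it was the lowest in 1 and the highest in 8, against 10.9% of all genes in which it was the highest. *Sdsl*, a serine dehydratase gene, reached 15.2 CPM in NC 8, while *Cyp2c37* was at 27.0 CPM there against an AAV-NC mean of 92.8 CPM. Low levels in NC 8 were not limited to hepatocyte zones. Its summed marker level was also the lowest of the 11 livers for central vein endothelium (11.1 CPM) and cholangiocytes (20.3 CPM). The same held for stellate cells (163 CPM) and, narrowly, sinusoidal endothelium (281 CPM). It was not the lowest for Kupffer cells (82.3 CPM) or hepatocytes (35840 CPM). The cause was not tested. This place of NC 8 was noticed in these same values and is a description of 1 liver.

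**Figure D3:**
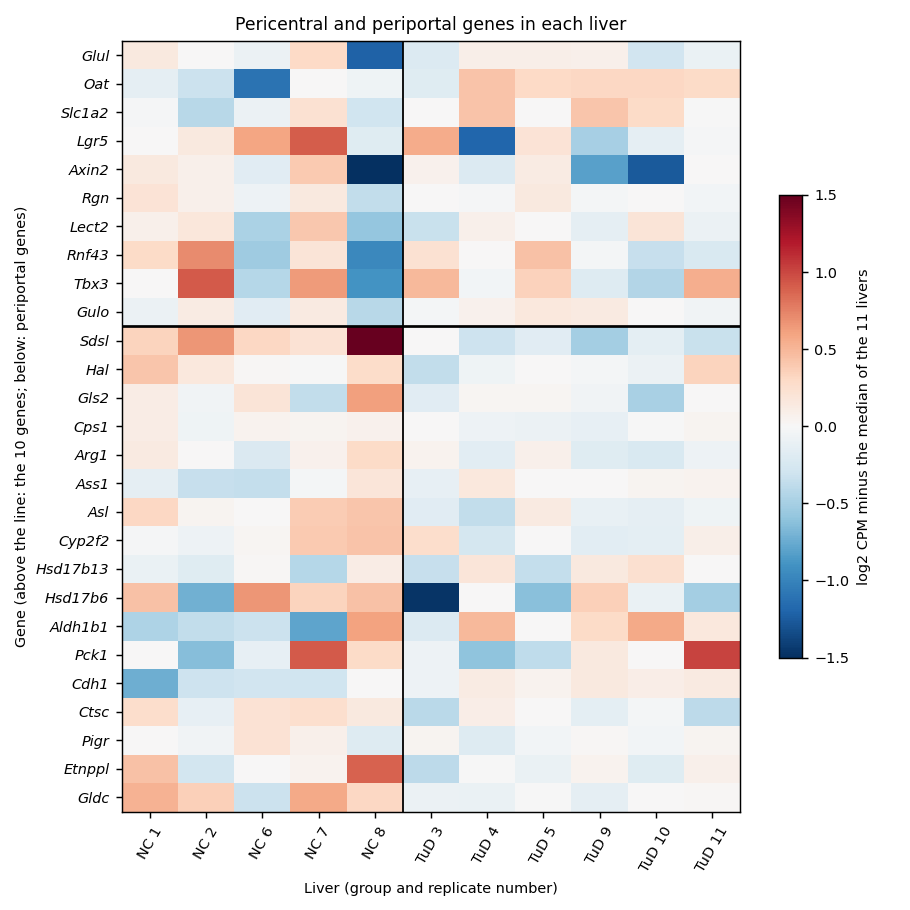
Level of the 10 genes (above the line) and of 17 periportal genes (below it) in each liver, as log2 CPM minus the median of the 11 livers, red above and blue below it, with colours held at 1.5 in either direction. The column of NC 8 is the lowest in 7 of the 10 upper genes and the highest in 8 of the 17 lower genes.

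NC 7 stood at the other end, as the highest liver for *Glul*, *Lgr5*, *Axin2* and *Lect2*. It had the largest share of reads from *Mup* genes, abundant urinary proteins made by hepatocytes (38.6%, against 8.09% to 30.9% in the other livers), and the smallest TMM factor (0.667), and scaled by totals alone it was the highest in 0 of the 10. The coefficient of variation was larger in AAV-NC than in AAV-TuD for 9 of the 10 genes, and for 8 of 10 without NC 8, where all genes gave 53.5% and 50.1%.

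Ratios between genes of the same liver, chosen after the values were seen, take out a scale that both genes share. The *Oat* to *Glul* ratio was 0.322, 0.314, 0.192, 0.319 and 0.868 in NC 1, 2, 6, 7 and 8, and 0.397, 0.494, 0.454, 0.462, 0.596 and 0.511 in TuD 3, 4, 5, 9, 10 and 11. All AAV-TuD livers lay above every AAV-NC liver except NC 8, which was the highest of all. Over the 11 livers the log2 ratio differed by 0.45 (two-sided exact permutation p = 0.212, adjusted over the 3 ratios 0.318), and without NC 8 by 0.78 (exact p = 0.00476). The *Slc1a2* to *Glul* ratio differed by 0.20 (exact permutation p = 0.422), and by 0.41 without NC 8 (exact p = 0.0238). The *Gulo* to *Rgn* ratio, from 2 genes that were both low in NC 8, differed by 0.11 (exact permutation p = 0.0931, adjusted 0.279). The values without NC 8 rest on leaving out the liver that stood apart and are no more than a description. Their p values were not adjusted, and 0.00476 is the smallest that the permutation test can give without that liver.

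Likeness of pattern was measured as the root mean square distance between centred log2 CPM over the 11 livers, among 8371 other genes whose mean was 50 reads or higher. *Traf5*, an adaptor of tumour necrosis factor receptors, was the nearest to *Glul* (0.156), followed by the pericentral P450 gene *Cyp2c50* (0.159) and *Nxpe2* (0.184). All 3 were low in NC 8, at 3.60, 78.5 and 3.99 CPM against AAV-NC means of 6.81, 193.0 and 9.43 CPM. They were chosen for a pattern like that of *Glul*, itself low in NC 8, so this low point comes with the choice. *Rgn* and *Gulo* came at ranks 47 and 48 for *Glul*, *Lect2* at 95, *Slc1a2* at 927 and *Oat* at 7410. The nearest to *Oat* were *Slc9a9*, a sodium and proton exchanger (0.172), *Aldh1a7*, an aldehyde dehydrogenase (0.19), and *Jpt1* (0.202). Their means in AAV-NC and AAV-TuD were 4.11 and 5.70 CPM for *Slc9a9*, 60.6 and 90.3 CPM for *Aldh1a7*, and 5.11 and 7.92 CPM for *Jpt1*. Since these genes were chosen for a pattern like that of *Oat* over the same livers, a difference between the groups comes with the choice, and no test of it is given.

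RefSeq promoter windows (GRCm38.p6, 250 bases before to 50 after the start) were matched for *Glul*, *Oat*, *Slc1a2*, *Axin2*, *Lect2* and *Rnf43*. They were searched on both strands for CAAAG preceded by 2 bases that are each A or T, a form of the site that TCF factors bind, with overlapping matches counted once per promoter. *Slc1a2* and *Lect2* each held 1 match, where 16.9% of 32851 promoters held at least 1. Both are printed with the match in capitals, since they are the windows among the 6 genes searched that carry it. *Lgr5*, *Rgn*, *Tbx3* and *Gulo* were not searched.
*Slc1a2*, chr2:102706205-102706264, plus strand: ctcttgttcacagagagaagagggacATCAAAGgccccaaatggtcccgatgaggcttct
*Lect2*, chr13:56548537-56548596, minus strand: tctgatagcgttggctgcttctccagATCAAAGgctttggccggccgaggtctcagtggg
The match lies 207 bases before the start in *Slc1a2*, at a start inside the gene as annotated above, and 32 bases before it in *Lect2*. *Lect2* was low in NC 8 (63.1% of the mean of the other AAV-NC livers) and *Slc1a2* less so (84.9%). Among the searched genes without a match, *Axin2* (20.7%), *Glul* (40.3%) and *Rnf43* (41.6%) were lower there and *Oat* (120.0%) was not. Any part of a match in these levels was not tested, and sites outside the windows were not sought.

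Upstream of the 10 genes, the ligands and receptors of the pathway gave few calls. Of 7 measured Wnt ligands, R-spondins and secretion factors 0 rose and 1 fell in edgeR, as with DESeq2 and limma-voom (3 and 1 at an unadjusted p under 0.05), with a median log2 fold change of 0.42. The one that fell was *Porcn*, which encodes the acyltransferase that Wnt proteins need for secretion (1.90 ± 0.45 to 0.735 ± 0.383 CPM, log2 -1.33, adjusted p = 0.0129, a mean of 12 reads). The central vein signals *Rspo3* and *Wnt2* were at 6.50 ± 0.715 and 8.60 ± 1.62 CPM (log2 0.41, adjusted p = 0.0876) and at 1.65 ± 0.631 and 2.32 ± 0.442 CPM (log2 0.51, adjusted p = 0.236). *Rspo3* passed the threshold when TuD 3 was left out (0.50, adjusted p = 0.0137). *Wnt9b* was not analysed here. Of 10 receptors 0 rose and 0 fell by any of the 3 tools (0 and 1 at an unadjusted p under 0.05), among them *Lrp6* (log2 0.02, adjusted p = 0.908) and *Lgr4*, the R-spondin receptor of most hepatocytes (-0.10, adjusted p = 0.725).

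Inside the cell, *Ctnnb1*, which encodes beta-catenin, was at 3.77 ± 0.84 and 3.90 ± 0.542 CPM (log2 0.04, adjusted p = 0.913). *Apc*, a scaffold of the destruction complex, was at 40.5 ± 3.48 and 34.2 ± 3.26 CPM (-0.24, adjusted p = 0.0743). Of 16 genes of beta-catenin turnover, *Csnk1e*, a casein kinase 1 gene, rose from 6.45 to 9.34 CPM (log2 0.53, adjusted p = 0.0121) and 0 fell, where an unadjusted p under 0.05 gave 3 and 2 and DESeq2 gave 2 and 0. Of 13 genes for TCF factors and their partners 2 rose and 0 fell (2 and 1 at an unadjusted p under 0.05, 1 and 0 with DESeq2), both without overlap between the groups. They were *Bcl9*, an adaptor that joins beta-catenin to its coactivators (log2 0.50, adjusted p = 0.0288), and *Tle3*, a corepressor of TCF factors (0.37, adjusted p = 0.0326). *Bcl9* lost its call without NC 2, NC 6, NC 7, NC 8 or TuD 4 (0.47 to 0.51, adjusted p 0.0507 to 0.0648) and with DESeq2, and *Tle3* without NC 1, NC 2, NC 6, NC 7, TuD 5, TuD 9 or TuD 10 (0.33 to 0.39, adjusted p 0.0517 to 0.075). *Tcf7l2*, the main TCF gene of hepatocytes, was at -0.04 (adjusted p = 0.823). Among 5 antagonists, *Dkk3* rose from 1.10 to 2.41 CPM (log2 1.11, adjusted p = 0.0126) and *Znrf3*, the partner of *Rnf43* in receptor removal, was at 0.17 (adjusted p = 0.634).

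Among Wnt targets outside the 10 genes, 4 of 11 rose and 0 fell in edgeR, with a median log2 fold change of 0.49 (5 and 1 at an unadjusted p under 0.05, 4 and 1 with DESeq2). Over all genes tested, 7.24% were called higher and 4.33% lower. The other 7 Wnt targets were not called. They were *Nkd1* (log2 0.52), *Bambi* (0.49), *Znrf3* (0.17), *Sp5* (0.02), *Notum* (0.01), *Tcf7* (-0.02) and *Myc* (-1.34, edgeR adjusted p = 0.0762). *Ccnd1*, which encodes cyclin D1 of the cell cycle, rose from 12.0 ± 3.23 to 36.1 ± 13.9 CPM (log2 1.58, adjusted p = 0.00133). *Sox9*, a factor of bile duct cells, rose from 22.9 ± 6.94 to 40.1 ± 5.53 CPM (0.82, adjusted p = 0.00498). *Tnfrsf19*, a receptor of the tumour necrosis factor family, rose by 1.54 (adjusted p = 0.00499) and *Cd44*, an adhesion receptor of many immune and mesenchymal cells, by 1.06 (adjusted p = 0.00556). These genes are also expressed by cells other than hepatocytes, and markers of such cells moved in the same direction. All 4 tested cholangiocyte markers rose, *Sox9* among them, with a summed level of 20.3 to 40.9 CPM in AAV-NC and 47.5 to 79.4 CPM in AAV-TuD. *Sox9*, which is in both lists, made up the larger part of this sum, so the sum largely repeats its rise. The other markers, *Spp1*, *Krt19* and *Epcam*, had means of 5.08, 0.797 and 0.664 CPM in AAV-NC and 23.1, 2.15 and 2.60 CPM in AAV-TuD. Of 7 stellate cell markers 6 rose (summed level 163 to 229 against 293 to 399 CPM), and of 7 Kupffer cell markers 4 rose (72.1 to 114 against 85.1 to 249.7 CPM). Their part in the rise of the Wnt targets was not tested.

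Markers of the endothelial cells that supply Wnt ligands gave no call. Of 9 sinusoidal endothelial markers 0 rose and 0 fell, also at an unadjusted p under 0.05 and with DESeq2 and limma-voom (median log2 fold change -0.02, summed level 281 to 306 against 282 to 305 CPM), and of 4 tested markers of central vein endothelium, *Rspo3* and *Wnt2* among them, 0 rose and 0 fell by any of the 3 tools (median 0.34, with 1 higher at an unadjusted p under 0.05). The hepatocyte markers were present in every liver, and of 5 tested 0 rose in edgeR (1 with DESeq2) and 2 fell, although neither fall was called when libraries were scaled by their totals alone. The 2 that fell were *Hnf4a*, a hepatocyte transcription factor gene (154 to 119 CPM, log2 -0.38), and *Apob*, an apolipoprotein gene (1604 to 1214 CPM, log2 -0.40). The summed level of the 5 was 30120 to 36890 CPM in AAV-NC and 39180 to 45390 CPM in AAV-TuD. Most of this sum is albumin (*Alb*), with means of 21100 and 28040 CPM, while *Apoa1* was at 6741 and 5859 CPM and *Ttr* at 5088 and 5415 CPM.

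**Figure D4:**
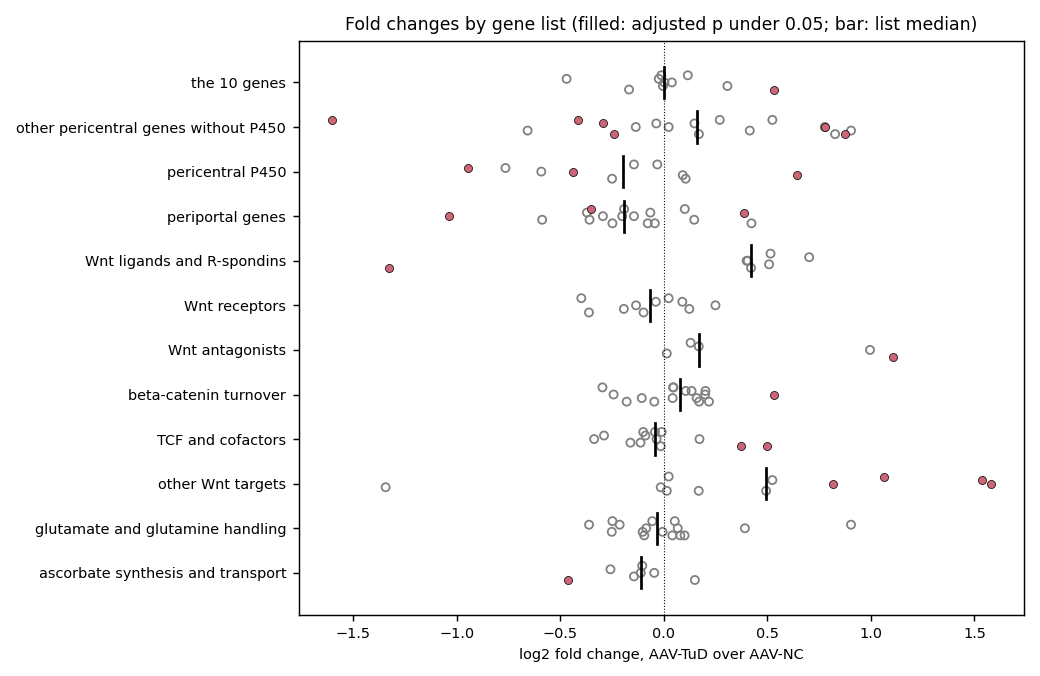
Log2 fold change, AAV-TuD over AAV-NC, of every tested gene of each list (points, filled at an adjusted p under 0.05, spread vertically for legibility) with the list's median (bar). The 10 genes centre on -0.00 with *Oat* filled, while the other Wnt targets centre on 0.49 with 4 filled points above 0.

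The wider zonation lists gave calls in both directions. Of the 18 other pericentral genes 2 rose and 4 fell (6 and 5 at an unadjusted p under 0.05, 4 and 5 with DESeq2, 3 and 5 with limma-voom), with a median of 0.16. *Slc22a3*, an organic cation transporter gene, rose from 2.75 to 5.02 CPM (log2 0.87, adjusted p = 0.00634), and *Lhpp*, a phosphatase gene, from 6.35 to 10.8 CPM (0.78, adjusted p = 0.0149). *Sult5a1*, a sulfotransferase gene, fell from 11.3 ± 5.92 to 3.77 ± 2.65 CPM (-1.60, adjusted p = 0.014), and *Slc16a10*, an aromatic amino acid transporter gene, from 38.0 to 28.5 CPM (-0.42, adjusted p = 0.00803). *Gsta3* and *Blvrb*, genes of detoxification and of haem breakdown, fell by 0.24 and 0.29 on the log2 scale (adjusted p = 0.0373 and 0.0433). Both calls depended on single livers, *Gsta3* losing it without any of 8 livers (NC 1, 2, 6 and 7 and TuD 4, 9, 10 and 11; -0.24 to -0.22) and *Blvrb* without any of 9 (NC 1, 2, 6 and 7 and TuD 3, 4, 9, 10 and 11; -0.30 to -0.25). When libraries were scaled by their totals alone the counts were 5 and 1, and *Gsta3*, *Blvrb* and *Slc16a10* were at -0.01, -0.05 and -0.17 with no call.

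Among 10 pericentral P450 genes 1 rose and 2 fell (1 and 4 at an unadjusted p under 0.05, 1 and 2 with DESeq2 and with limma-voom), with a median of -0.20. *Cyp3a11*, which encodes a major drug-metabolising enzyme, rose from 1259 ± 134 to 1965 ± 333 CPM (log2 0.64, adjusted p = 0.00409), and *Cyp27a1*, of bile acid synthesis, fell from 283 to 209 CPM (-0.44, adjusted p = 0.00488). *Cyp2c37* fell from 92.8 ± 41.3 to 48.0 ± 9.96 CPM (-0.95, adjusted p = 0.0365), a call lost with limma-voom and without any of NC 1, 2, 6 and 7 and TuD 4, 5, 9 and 10 (-0.98 to -0.80). The 17 periportal genes gave 1 rise and 2 falls (1 and 6 at an unadjusted p under 0.05, 1 and 3 with DESeq2, 1 and 2 with limma-voom, 1 and 1 scaled by totals alone), with a median of -0.19. *Cdh1*, which encodes E-cadherin and is also made by bile duct cells, rose from 81.1 to 106 CPM (0.39, adjusted p = 0.0205). *Asl*, of the urea cycle, fell from 177 to 138 CPM (-0.35, adjusted p = 0.0289), a call lost without NC 1, NC 7, NC 8, TuD 4, TuD 9 or TuD 10 (-0.35 to -0.30). *Sdsl* fell from 8.02 to 3.95 CPM (-1.04, adjusted p = 0.0129), and without NC 8 the fall was 0.65 (adjusted p = 0.0175). Scaled by totals alone, *Asl* and *Cyp27a1* stood at -0.12 and -0.21 with no call.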

How the data were processed

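Total RNA of 11 mouse livers was made into QuantSeq 3′ mRNA libraries, which give 1 read per transcript end, so that a level does not grow with transcript length. Per the methods and labels, the authors used BBDuk for trimming, STAR 2.5.3a for alignment (GRCm38), Rsubread for counting and DESeq2 1.38.3 for testing. The annotation and the strand setting are not given in the sources used here. The deposited table holds whole-number read counts per gene, not normalised, with 8148531 to 12043959 reads per liver.

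A gene needed over 10 reads in 5 or more livers to enter the test with edgeR 4.0.16 in R 4.3.3 (TMM factors, quasi-likelihood test, Benjamini-Hochberg adjustment over all 13334 genes, threshold 0.05). CPM were scaled by the TMM factors, and a log2 CPM used a prior count of 2. Single values were tested by two-sided exact permutation over all 462 splits of the 11 livers, whose smallest p is 0.00216. Ratios without NC 8 used all splits of the remaining livers, whose smallest p is 0.00476. The scripts were tested on simulated data. DESeq2 1.42.0, limma 3.58.1 with voom and quality weights, other scalings, other filters, removal of *Mup* reads and leaving out each liver were tried. Gene positions and 3′ UTRs came from GENCODE M21, and miRNA and promoter sequences from RefSeq (GRCm38.p6). The 10 genes and all lists were chosen with earlier results of these data known. Genes were named if they were one of the 10, passed the threshold in a fixed pathway or zonation list (at most 6 per list), were one of 9 preset pathway genes, or were among the 3 nearest in pattern to *Glul* or *Oat*. The uncalled genes of the list of other Wnt targets were named as well. So were genes that overlap one of the 10, the pseudogenes of *Glul*, and some hepatocyte and cholangiocyte markers, called or not. List genes outside the table were not analysed here.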

Additional observations from a re-analysis of the deposited data

Results flagged for a closer look

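In 2 of 20 groups of values (10 genes in each of the 2 groups), 1 liver was separated from the others by a gap that Dixon's ratio sets apart, where chance gives about 1. The level of *Oat* in TuD 3, 131.7 CPM, was the lowest of the AAV-TuD livers, and its gap to the next took up 0.736 of the range of the group. Without TuD 3 the log2 fold change of *Oat* was 0.61 (edgeR adjusted p = 0.0166), and without NC 6, the lowest AAV-NC liver, it was 0.38 (adjusted p = 0.0404). The level of *Rgn* in TuD 5, 584.8 CPM, was the highest of the AAV-TuD livers with a ratio of 0.753, and it lay below the highest AAV-NC liver. The low *Glul* level of NC 8 did not reach the limit of this ratio in a group of 5 livers.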

How the results depend on the processing

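With all livers, *Oat* was called under every other tool, scaling and filter run (log2 fold change 0.52 to 0.80, adjusted p 0.0038 to 0.0433). Scaling by library size alone, which raised the median of all genes tested to 0.23, called 2 of the 10 genes higher and turned the sign of *Lect2* (0.28), *Rnf43* (0.21), *Tbx3* (0.21), *Axin2* (0.0699), *Tcf7l2* (0.20) and *Lgr4* (0.12), none of them called. The sign of values near 0 also turned for *Rgn* with DESeq2 (-0.0030), with its size factors (-0.00308) and with limma-voom (-0.0144), for *Lect2* with upper-quartile factors (0.00134) and limma-voom (0.00739), and with limma-voom for *Rnf43* (0.0112) and *Tbx3* (0.0355). Leaving out each liver in turn gave 0 to 2 of the 10 called higher, 0 called lower, a median of -0.13 to 0.12 and 1012 to 1829 genes called, against 1543 with all livers, the lowest without TuD 4. Ranges of log2 fold change then crossed 0 for *Glul* (-0.14 to 0.15), *Rgn* (-0.0779 to 0.0559), *Lect2* (-0.12 to 0.13), *Rnf43* (-0.20 to 0.22), *Tbx3* (-0.21 to 0.24), *Axin2* (-0.44 to 0.00753), *Ctnnb1* (-0.0668 to 0.14), *Tcf7l2* (-0.0899 to 0.0166) and *Lrp6* (-0.0193 to 0.0838). Apart from the scaling itself, the cause of these shifts was not tested. No paired analysis was made, because the labels number the livers in a single running series over both groups and name no pairs. *Lgr5* and *Axin2* rest on 5 to 31 reads a liver, and the part of depth in their wide intervals was not tested.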
